A study of Mus musculus with 22 samples.

Results

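Potassium channels set the membrane potential of arterial smooth muscle, and 9 of their genes were followed in RNA-seq of such cells, sorted by fluorescence from 7 tissues of the mouse. The 9 genes were chosen by name, as members of the BK, Kv, ERG, K2P and inward rectifier families, and each matched 1 row among the 28099 genes of the table. Intestine had 4 libraries, and stomach, bladder, kidney, lung, heart and aorta had 3 each. Cells from 6 tissues came from mice of the genotype Cspg4-Dre/Acta2-CreERT/R26-GFP, and heart cells from mice of the genotype Cspg4-DreERT/Acta2-CreERT/R26-GFP. Cspg4 is the gene of the mural cell proteoglycan NG2 and Acta2 that of smooth muscle actin, so the label reports cells in which both promoters had been active. All mice had received tamoxifen at 0.75 mg per 10 g of body weight on 3 days, and no tissue served as an untreated reference. Heart and its genotype cannot be told apart. The labels give neither the animal nor the age behind a library, so a p-value reflects how these samples vary, part of which may be technical variation.

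Potassium leaving the cell through these channels hyperpolarizes the membrane, closes voltage-gated calcium channels and relaxes the artery. BK channels open on calcium sparks, and their beta-1 subunit raises the calcium sensitivity of the pore. Voltage-gated Kv channels, with KCNQ and ERG channels among them, oppose depolarization. K2P channels, whose subunits hold a pair of pore loops, carry background current at rest, and inward rectifiers of the Kir2 type pass potassium near the resting potential and respond to extracellular potassium.

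The values are a signal, that is, read counts scaled per library. Dividing each by the signal of 1 read gave rebuilt reads, of which the aorta libraries held 629456, 1540366 and 1927765 and heart 3 held 817157, against 4389363 to 12708420 in the other 18 libraries. Acta2 was above 0 in every library, with a signal of 1343 to 25011, and Cspg4 ran from 15 in bladder 3 and 65 in kidney 2 to 2542 in kidney 3. The summed signal of 7 arterial smooth muscle markers (Acta2, Myh11, Tagln, Cnn1, Smtn, Lmod1, Myocd) was 47109 to 63862 in aorta and 69188 in heart 3. It was 7289 in bladder 3 and between 10851 and 25153 in the remaining libraries. The 4 libraries with the highest sums were the 4 with the fewest reads. Acta2 held 1925 to 3775 rebuilt reads in every library and Cnn1 933 to 2965, over libraries that differed 20.2-fold in reads. Other markers varied more, Myh11 from 1028 to 13321 and Lmod1 from 194 to 3585. The sums alone therefore do not measure how much smooth muscle RNA a library held. Markers of other cells were present too. Skeletal muscle markers (Acta1, Ckm, Myh4, Tnnt3, Tnni2, Myl1) summed to 20694 in aorta 3 and to at most 1985 in any other library. Gut epithelium markers summed to 6697 to 8612 in stomach and 3727 to 5036 in intestine, nephron markers to 4302 to 14389 in kidney and lung epithelium markers to 4129 to 4980 in lung. The signal in a bulk library does not tell fewer cells of a type from less RNA per cell. Such markers are given below beside the results they move with.

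Among the 7 tissues 7 of the 9 genes differed, and 2 did not pass the test. Kcnmb1 was highest in aorta, Kcna5 and Kcnab1 in heart and kidney, Kcnh2 and Kcnk3 in lung, Kcnk1 in stomach and Kcnj2 in kidney. Kcnma1, the BK pore, and Kcnq5 did not pass. The test was limma's F test on log2(signal + 1) with Benjamini-Hochberg adjustment over 16917 genes, of which 59.6% passed at an adjusted p under 0.05, so 7 of 9 is not far from the share of all genes. Adjusted p was 1.18e-07 for Kcnmb1, 4.41e-07 for Kcnab1 and 1.77e-06 for Kcnj2. It was 9.29e-05 for Kcna5, 0.000184 for Kcnk1, 0.000597 for Kcnh2 and 0.00259 for Kcnk3. For Kcnq5 and Kcnma1 it was 0.123 and 0.689.

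**Figure D1:**
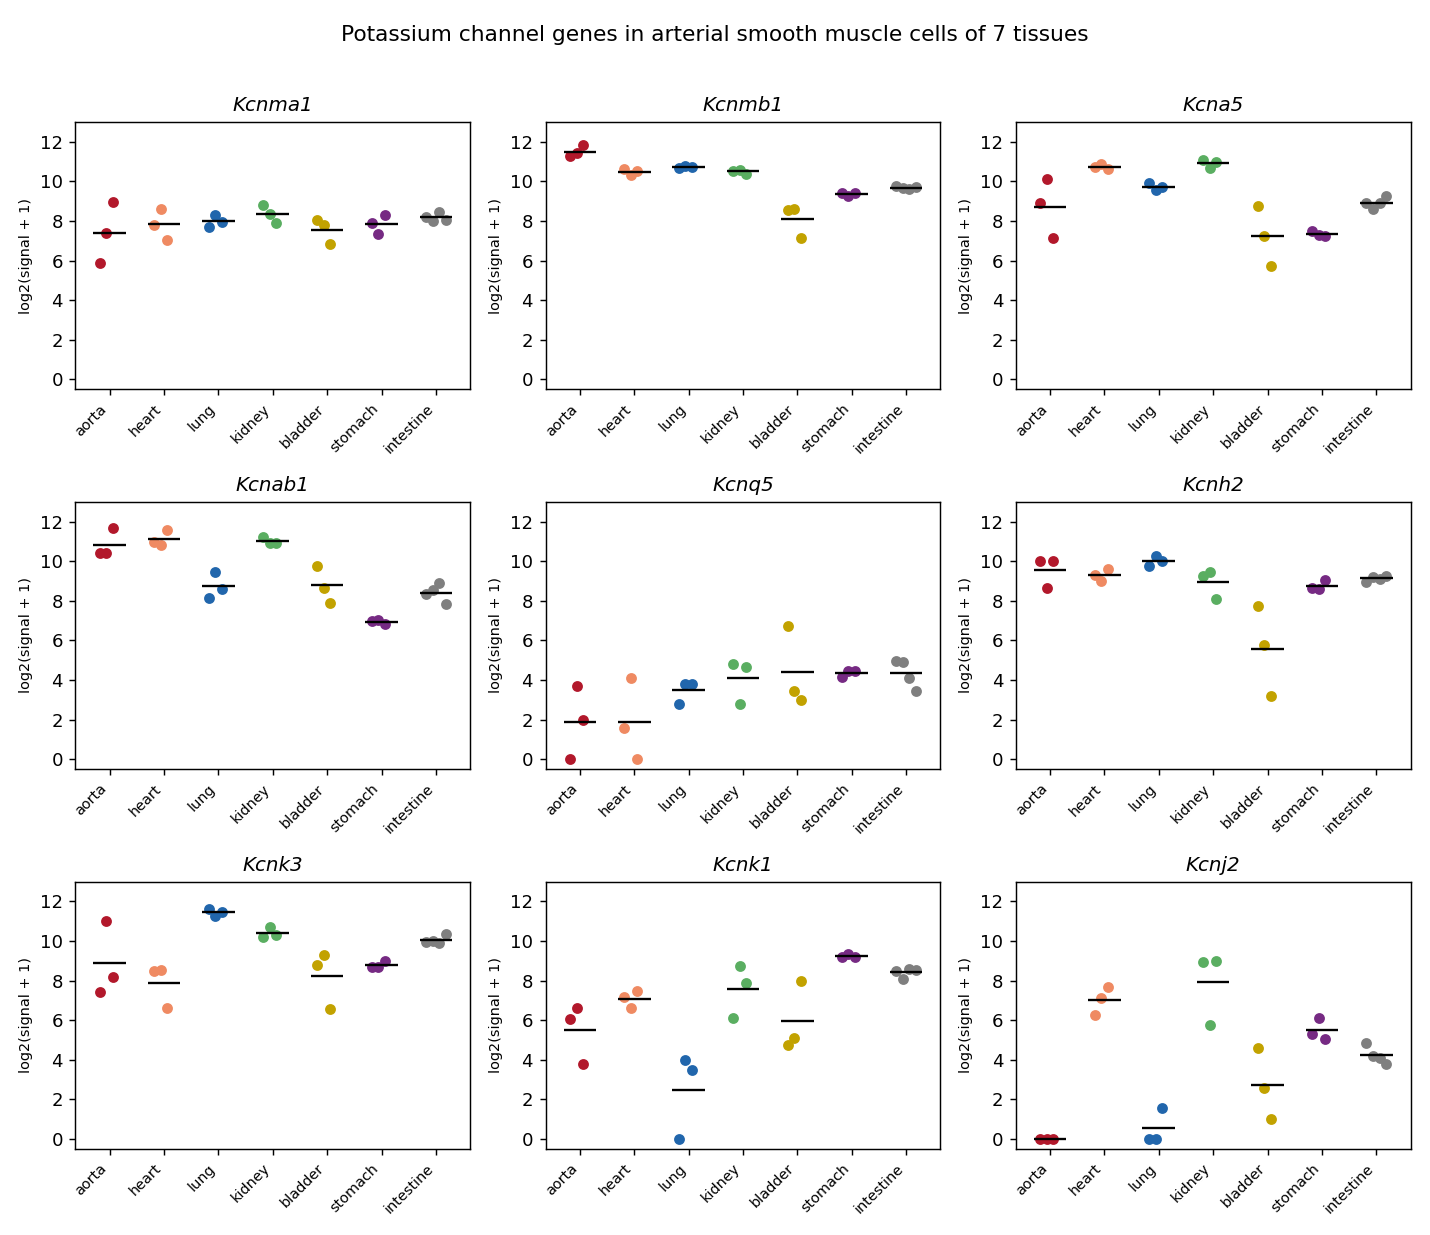
Signal of each of the 9 channel genes in each of the 22 libraries, as log2(signal + 1) on the vertical axis, by tissue on the horizontal axis. Points are libraries and bars are tissue means of the log2 values (n = 3, intestine n = 4). Kcnmb1 is highest in the 3 aorta libraries and lowest in bladder, Kcnj2 is at 0 in all 3 aorta libraries, and Kcnma1 overlaps between every pair of tissues.

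Levels of different genes are set against each other only per exonic kilobase. On that scale the mean over the 7 tissue means was 317 for Kcnmb1, 297 for Kcna5, 259 for Kcnk3, 129 for Kcnab1 and 121 for Kcnh2. It was 96.3 for Kcnk1, 15.3 for Kcnma1, 14.9 for Kcnj2 and 2.28 for Kcnq5. A length here is the union of all annotated exons of a gene, 16976 bases for Kcnma1 and 4191 for Kcnmb1. Where the transcripts present are shorter than that union, the value per base is too low. On this scale the pore gene of the BK channel had a far lower signal than the gene of its beta-1 subunit. In all, 5 members (Kcna5, Kcnk3, Kcnmb1, Kcnab1 and Kcnk1) reached 0.5 rebuilt reads per exonic base in some library, as did 16.8% of the 16601 tested genes with a length. Kcna5 went highest, to 1.65 in kidney 1, above the 99th percentile of 1.54. At such levels the rebuilt reads of some genes varied far less than library depth. Examples were Acta2 above and Myl9, with 1885 to 2303 rebuilt reads in every library. Their signal was therefore highest in the libraries with the fewest reads. Tagln, at up to 0.281 reads per exonic base, also varied less (5.88-fold) than depth (20.2-fold). All aorta libraries had few reads, so depth and abundance cannot be told apart there. Whether this touched these members was not tested.

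Promoter windows of RefSeq (GRCm38.p6, 250 bases before to 50 bases after an annotated start) were found for 8 of the 9 genes, in 11 windows. Of these, 4 are shown because their genes have 4 different patterns over the tissues: Kcnmb1 led in aorta, Kcna5 in kidney and heart, Kcnh2 was lowest in bladder, and Kcnj2 was not detected in aorta. Capitals mark matches, on either strand, to TGGGAA, the core letters bound by the Notch partner RBPJ, or to GGGCGG, the GC box bound by SP1-type factors.
Kcnmb1, chr11:33962763-33963062, plus strand: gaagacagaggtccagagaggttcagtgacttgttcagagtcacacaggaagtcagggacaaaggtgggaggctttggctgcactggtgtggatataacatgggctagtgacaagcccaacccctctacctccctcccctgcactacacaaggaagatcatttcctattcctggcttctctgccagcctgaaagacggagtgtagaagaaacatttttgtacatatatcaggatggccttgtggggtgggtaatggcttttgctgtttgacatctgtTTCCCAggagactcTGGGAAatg
Kcna5, chr6:126535506-126535805, minus strand: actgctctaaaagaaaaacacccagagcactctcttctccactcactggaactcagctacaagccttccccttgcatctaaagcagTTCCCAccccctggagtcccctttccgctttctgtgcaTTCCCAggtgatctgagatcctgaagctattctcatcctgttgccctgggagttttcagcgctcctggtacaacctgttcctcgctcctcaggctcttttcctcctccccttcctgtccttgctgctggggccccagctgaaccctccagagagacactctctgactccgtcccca
Kcnh2, chr5:24329542-24329841, minus strand: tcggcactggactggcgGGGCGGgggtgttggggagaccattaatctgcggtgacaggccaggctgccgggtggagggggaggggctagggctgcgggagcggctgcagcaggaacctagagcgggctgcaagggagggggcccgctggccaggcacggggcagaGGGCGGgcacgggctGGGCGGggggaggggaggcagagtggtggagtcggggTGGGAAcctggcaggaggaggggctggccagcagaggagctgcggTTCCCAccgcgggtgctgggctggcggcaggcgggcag
Kcnj2, chr11:111065914-111066213, plus strand: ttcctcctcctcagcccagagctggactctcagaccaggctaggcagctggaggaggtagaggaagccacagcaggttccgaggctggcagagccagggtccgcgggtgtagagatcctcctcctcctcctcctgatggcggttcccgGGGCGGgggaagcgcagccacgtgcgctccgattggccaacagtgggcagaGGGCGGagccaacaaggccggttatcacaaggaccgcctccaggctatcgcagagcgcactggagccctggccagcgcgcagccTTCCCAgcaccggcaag

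The windows differed most in base composition. G and C made up 49.7% of the Kcnmb1 window with 1 CG pair and 55.0% of the Kcna5 window with 4, but 74.3% of the Kcnh2 window with 19 and 66.7% of the Kcnj2 window with 18. The Kcnma1 window was at 78.0% with 36 CG pairs, against medians of 52.7% and 7 over 32851 windows of all genes. TGGGAA was found in 7 of the 11 windows, belonging to 6 genes (Kcnmb1, Kcna5, Kcnab1, Kcnq5, Kcnh2, Kcnj2), and in 25.6% of all windows. GGGCGG was found in 4 of 11 windows (35.7% of all), those of Kcnma1, Kcnab1, Kcnh2 and Kcnj2. The CArG box, the element bound by serum response factor, was in none of the 11 and in 1.6% of all. These matches are letters in a window, and no binding was measured.

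The BK channel pore gene Kcnma1 (ENSMUSG00000063142, mm39 chromosome 14, 23339499 to 24064559, minus strand) did not pass the test in any pair of tissues. It was at 447, 323 and 237 in the kidney libraries and at 266, 219 and 115 in bladder, the tissues with the highest and lowest means. It was at 297, 256, 347 and 265 in intestine, at 209, 315 and 243 in lung and at 238, 164 and 315 in stomach. Heart gave 225, 394 and 129, and aorta 57, 166 and 499 from 6, 41 and 151 rebuilt reads. The ranges overlapped for all 21 pairs of tissues. In limma none had an unadjusted p under 0.05, and edgeR, DESeq2 and voom on rebuilt reads called 0 as well. Kidney exceeded bladder by 0.78 ± 0.58 (SE) on the log2 scale (336 ± 106 against 200 ± 77.3, SD, n = 3 each, adjusted p = 0.475). The missed threshold does not show equal levels, since the aorta libraries alone spread 8.75-fold. Without aorta 3, Kcnma1 was lower in aorta than the mean of the other 6 tissues, by -1.34 on the log2 scale (adjusted p = 0.0123), against -0.56 with it (adjusted p = 0.296). Aorta 3 was also the library with skeletal muscle markers at 20694, against 432 and 933 in aorta 1 and 2, and their part in its level was not tested.

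Kcnmb1, the BK beta-1 subunit (ENSMUSG00000020155, chromosome 11, 33913013 to 33923641, plus strand), gave the clearest ordering of tissues. Its signal was 2449, 2736 and 3620 in aorta, then 1659, 1755 and 1689 in lung, 1495, 1521 and 1329 in kidney and 1583, 1281 and 1456 in heart. It was 866, 808, 779 and 839 in intestine, 675, 621 and 684 in stomach and 371, 394 and 141 in bladder. Every aorta library exceeded every library of the other tissues, and every bladder library lay below all others. The ranges were apart in 20 of 21 pairs, with kidney and heart the exception, and 17 pairs passed the limma test.

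The mean of Kcnmb1 in aorta was 9.72 times that in bladder (2935 ± 610 against 302 ± 140), a log2 difference of 3.39 ± 0.27 (adjusted p = 4.98e-08). Between neighbours in the order, aorta exceeded lung (0.77 ± 0.27, adjusted p = 0.0487), heart exceeded intestine (0.80 ± 0.25, adjusted p = 0.0222) and stomach exceeded bladder (1.26 ± 0.27, adjusted p = 0.00246). Lung did not pass against kidney (0.23 ± 0.27, adjusted p = 0.642) or heart, nor kidney against heart, although every lung library exceeded every kidney and heart library. Intestine against stomach, whose ranges were apart, did not pass in the shared fit (0.32 ± 0.25, adjusted p = 0.8) but did in a fit of that pair alone (adjusted p = 0.0112). The step from heart to intestine was lost without heart 1, heart 3 or intestine 3 (adjusted p up to 0.0697). The step from aorta to lung was lost in 17 of 22 fits that each left out 1 library, with adjusted p from 0.00193 to 0.123, and in a fit of that pair alone (adjusted p = 0.0601). Kcnmb1 lies within Kcnip1, with no shared exonic bases. Other members did share annotated exonic bases with another gene: Kcnk1 8.0% of its own, Kcnma1 6.0%, Kcnk3 5.8%, Kcnq5 3.1% and Kcnab1 2.3%.

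Against the mean of the other 6 tissues, Kcnmb1 was higher in aorta (1.69 ± 0.20, adjusted p = 5.03e-06) and in lung (0.79 ± 0.20, adjusted p = 0.021). It was lower in bladder (-2.27 ± 0.20, adjusted p = 6.13e-07) and in stomach (-0.80 ± 0.20, adjusted p = 0.00829). The call in lung was lost without any 1 of the lung libraries (adjusted p = 0.0939 to 0.111) and with median-of-ratios scaling (0.65, adjusted p = 0.0516). The call in stomach was lost without the aorta libraries (-0.53, adjusted p = 0.0662) and without stomach 2 (-0.76, adjusted p = 0.0613). Without bladder 3, calls were added in heart (0.43, adjusted p = 0.0165), kidney (0.44, adjusted p = 0.0198) and intestine (-0.51, adjusted p = 0.00146), and intestine also passed with edgeR, DESeq2 and voom. Of the 7 smooth muscle markers, 6 were higher in aorta and 4 lower in bladder. Their sum was highest in the 4 libraries with the fewest reads, and in heart it was 20244, 19516 and 69188 beside Kcnmb1 at 1583, 1281 and 1456. In bladder the sum fell with the reads, at 15875, 12489 and 7289 beside Kcnmb1 at 371, 394 and 141. Kcnmb1 itself ran from 105 rebuilt reads in bladder 3 to 3278 in kidney 1. The part of smooth muscle content in its level was not tested.

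**Figure D2:**
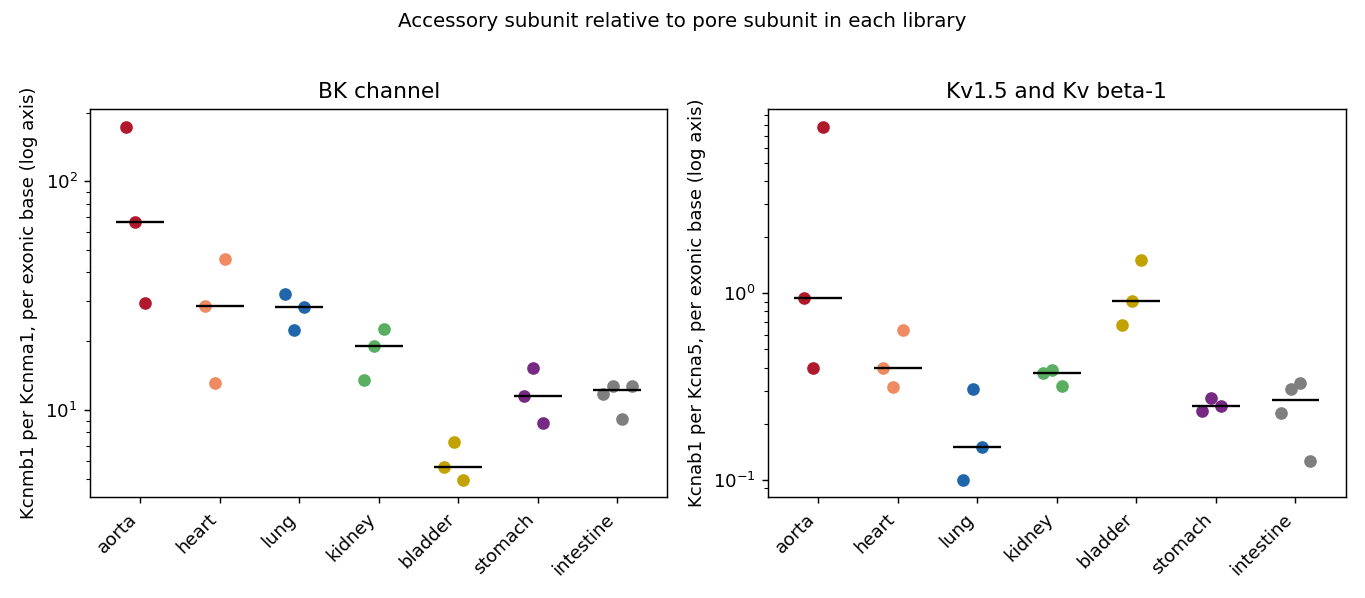
Accessory subunit relative to pore subunit in each library, per exonic base, on log axes: Kcnmb1 per Kcnma1 (left) and Kcnab1 per Kcna5 (right). Points are libraries and bars are tissue medians (n = 3, intestine n = 4). The 3 bladder libraries have the lowest Kcnmb1 to Kcnma1 ratios, between 4.97 and 7.29.

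The ratio of Kcnmb1 to Kcnma1 does not depend on the scaling of a library. In signal and per exonic base, beta-1 exceeded the pore gene in all 22 libraries. The lengths change the ratio alike in every tissue, and without them its median was 16.5 in aorta and 1.39 in bladder. Per exonic base the median ratio was 66.8 in aorta (29.4 to 174), 28.5 in heart (13.2 to 45.7), 28.2 in lung (22.6 to 32.2) and 19.1 in kidney (13.5 to 22.7). It was 12.3 in intestine (9.09 to 12.8), 11.5 in stomach (8.80 to 15.3) and 5.65 in bladder (4.97 to 7.29). Bladder did not overlap any other tissue, and aorta, lung, kidney and stomach overlapped with heart. The highest ratio, in aorta 1, rested on 6 rebuilt reads of Kcnma1. Within aorta, heart, lung and kidney the ratio was highest in the library with the fewest reads and lowest in that with the most. Bladder, stomach and intestine did not show this full order. The part of depth in the ratio and in its order over tissues was not tested.

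Kcna5, the pore of the Kv1.5 channel (ENSMUSG00000045534, chromosome 6, 126509514 to 126512375, minus strand), was highest in kidney and heart. It was at 2157, 1641 and 1998 in kidney, at 1676, 1908 and 1577 in heart and at 954, 757 and 846 in lung. Intestine gave 472, 395, 478 and 608, stomach 177, 157 and 150, bladder 430, 149 and 52 and aorta 480, 1123 and 139. Kidney and heart overlapped and lay above every other library, and the aorta and bladder libraries spread 8.08-fold and 8.27-fold.

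The kidney mean of Kcna5 was 12.0 times that in stomach (1932 ± 264 against 161 ± 14.0), a log2 difference of 3.57 ± 0.60 (adjusted p = 0.0003), and 11 of 21 pairs passed. Kcna5 was, against the mean of the other 6, higher in heart (1.94 ± 0.46, adjusted p = 0.00671) and kidney (2.13 ± 0.46, adjusted p = 0.00445). It was lower in stomach (-2.04 ± 0.46, adjusted p = 0.00316) and bladder (-2.16 ± 0.46, adjusted p = 0.00287). The bladder call rested on bladder 3: without it the difference was -1.40 (adjusted p = 0.0629). Of the neighbours in the order, only intestine and bladder passed (1.68 ± 0.56, adjusted p = 0.046), a step lost in 17 of 22 fits that each left out 1 library. Aorta 2, the highest aorta library for Kcna5, also had lung epithelium markers at 1227, against 75 and 0 in aorta 1 and 3, and their part in its level was not tested.

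Kcnab1, the beta-1 subunit that binds Kv1 pores from inside the cell and speeds their inactivation (ENSMUSG00000027827, chromosome 3, 64856617 to 65285644, plus strand), was high in 3 tissues. It was at 1992, 1792 and 3001 in heart, at 2412, 1902 and 1915 in kidney and at 1366, 1342 and 3273 in aorta. It was at 872, 406 and 235 in bladder, at 286, 702 and 380 in lung, at 325, 366, 473 and 231 in intestine and at 124, 129 and 112 in stomach. Heart, kidney and aorta overlapped with each other and lay above all libraries of the other 4 tissues, and stomach lay below all others.

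Heart exceeded stomach 18.5-fold in mean Kcnab1 (2262 ± 648 against 122 ± 8.74), a log2 difference of 4.17 ± 0.43 (adjusted p = 6.88e-07), and 15 of 21 pairs passed. The step from aorta down to bladder passed (2.05 ± 0.43, adjusted p = 0.00154), as did that from intestine to stomach (1.47 ± 0.41, adjusted p = 0.0345), while the other neighbours did not differ beyond their spread. The step from intestine to stomach was lost without any 1 of the stomach libraries and without intestine 1, 2 or 3 (adjusted p = 0.014 to 0.125 over the left-out libraries). Set against the other 6, the gene was higher in heart (1.99 ± 0.33, adjusted p = 0.00041), kidney (1.88 ± 0.33, adjusted p = 0.000691) and aorta (1.67 ± 0.33, adjusted p = 0.000532). It was lower in stomach (-2.87 ± 0.33, adjusted p = 2.75e-06) and intestine (-1.16 ± 0.29, adjusted p = 0.00648). The call in aorta was lost with array weights (1.68, adjusted p = 0.118), which give noisy libraries less say. Without bladder 1 the gene was also lower in bladder (-1.23, adjusted p = 0.0234, against -0.73 and 0.155 with it).

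Kcna5 and Kcnab1 were not matched in every tissue. The median ratio of Kcnab1 to Kcna5 per exonic base was 0.948 in aorta (0.398 to 7.84) and 0.908 in bladder (0.675 to 1.51). It was 0.396 in heart (0.313 to 0.634), 0.372 in kidney (0.319 to 0.386) and 0.15 in lung (0.0998 to 0.309). Stomach gave 0.249 (0.233 to 0.274) and intestine 0.269 (0.127 to 0.330). Bladder lay above every heart library, whereas the lung range lay below those of heart and kidney. The ratio differed most between libraries in aorta, where aorta 3 alone was high, the library with skeletal muscle markers at 20694. Their part in the ratio and in the 3273 of Kcnab1 there was not tested.

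Kcnq5, the pore of the Kv7.5 channel (ENSMUSG00000028033, chromosome 1, 21468627 to 22032166, minus strand), was near the limit of detection. It was at 106, 10 and 7 in bladder, at 30, 29, 16 and 10 in intestine, at 17, 21 and 21 in stomach and at 27, 6 and 24 in kidney. Lung gave 6, 13 and 13, heart 2, 16 and 0, and aorta 0, 12 and 3, from 4 rebuilt reads in all. Bladder 1 alone stood high, and the signal worth 3 reads was 28.3, 12.2 and 9.9 in the aorta libraries and 24.3 in heart 3, so a level like the mean of kidney or stomach was not detectable in aorta 1 or heart 3. No tissue and no pair passed in limma, edgeR, DESeq2 or voom, with 6 pairs at an unadjusted p under 0.05 in limma. Without heart 2, at 16, Kcnq5 was lower in heart (-2.97, adjusted p = 0.0274, against -1.87 and 0.125 with it), and without aorta 2 it was lower in aorta (-2.76, adjusted p = 0.0242, against -1.86 and 0.0695). Without heart 3 it was lower in aorta as well (-2.02, adjusted p = 0.0346).

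Kcnh2, the pore of the ERG1 channel that repolarizes cardiac and smooth muscle (ENSMUSG00000038319, chromosome 5, 24524587 to 24556602, minus strand), was set apart by its low signal in bladder. It was at 867, 1221 and 1016 in lung, at 1036, 397 and 1024 in aorta, at 626, 515 and 777 in heart and at 491, 592, 555 and 607 in intestine. Kidney gave 615, 694 and 269, stomach 395, 385 and 523, and bladder 210, 54 and 8. All 3 bladder libraries lay below every other library, and the 6 other tissues overlapped with their neighbours in the order.

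Lung exceeded bladder 11.4-fold in mean Kcnh2 (1035 ± 178 against 90.7 ± 106), a log2 difference of 4.44 ± 0.71 (adjusted p = 0.000335), and without bladder 1 the ratio was 33.4. The 6 pairs that passed were the 6 that include bladder. With each pair fitted alone, only lung (adjusted p = 0.0274) and intestine (0.0298) still passed against bladder, and the other 4 bladder pairs did not (0.0948 to 0.174). Lung against stomach (0.000713) and lung against intestine (0.000414) passed in those fits and not in the shared one. Bladder was lower than the mean of the other 6 (-3.72 ± 0.54, adjusted p = 0.000109), and this held at -2.53 to -4.80 whichever library was left out. Kcnh2 in lung did not pass (1.47, adjusted p = 0.103), but passed without bladder 1 (1.65, adjusted p = 0.0142) and without bladder 3 (1.27, adjusted p = 0.0288). Kcnh2 in lung also passed with edgeR (1.26, adjusted p = 0.0443) and voom (1.45, adjusted p = 0.000346) on rebuilt reads and with array weights (1.60, adjusted p = 0.00115). The same held with a pseudocount of 10 (1.39, adjusted p = 0.0433) and without the aorta libraries (1.67, adjusted p = 0.0314). DESeq2 and the other scalings did not call it. Kcnh2 in aorta passed without bladder 1 (1.12, adjusted p = 0.0251, against 0.94 and 0.148 with it).

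Within bladder, several members ran in the same order of libraries. Kcnh2 (210, 54, 8), Kcna5 (430, 149, 52), Kcnab1 (872, 406, 235) and Kcnj2 (23, 5, 1) were each highest in bladder 1 and lowest in bladder 3. The summed smooth muscle markers went the same way, at 15875, 12489 and 7289, as did rebuilt reads of the libraries, at 8611799, 6174230 and 4389363, and pericyte markers at 13898, 4971 and 2120. Urothelium markers were at 465, 385 and 3472 and fibroblast markers at 25209, 18085 and 28584. Kcnk1 went the other way, at 26, 33 and 255. The part of these cells in the bladder values was not tested.

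Kcnk3, the acid-sensitive K2P channel TASK-1 (ENSMUSG00000049265, chromosome 5, 30745514 to 30782615, plus strand), was highest in lung. TASK-1 is known as a background conductance of pulmonary artery smooth muscle, and loss of its function in humans as a cause of pulmonary arterial hypertension. The signal was 3132, 2474 and 2843 in lung, 1193, 1678 and 1262 in kidney and 999, 1006, 942 and 1323 in intestine. It was 417, 406 and 510 in stomach, 445, 622 and 94 in bladder and 357, 375 and 97 in heart, while aorta gave 170, 2092 and 294. The lung libraries exceeded all others, and aorta 2 was 12.3 times aorta 1.

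The lung mean of Kcnk3 was 10.2 times that of heart (2816 ± 330 against 276 ± 156), a log2 difference of 3.57 ± 0.72 (adjusted p = 0.00399), and 7 of 21 pairs passed. No step between neighbours in the order passed, and lung against kidney, whose ranges were apart, gave 1.04 ± 0.72 (adjusted p = 0.396) in the shared fit and adjusted p = 0.00978 in a fit of that pair alone. Relative to the mean of the other 6, Kcnk3 was higher in lung (2.41 ± 0.55, adjusted p = 0.00998) and lower in heart (-1.75 ± 0.55, adjusted p = 0.0332). The lung call was lost without lung 1 (2.33, adjusted p = 0.0732) or lung 3 (2.40, adjusted p = 0.0564). The heart call was lost without heart 3 (-1.12, adjusted p = 0.32), and with all libraries it was lost with edgeR and with voom on rebuilt reads. Lung epithelium markers were high in the same lung libraries, all 5 of 5 passing as higher, and aorta 2 held more of them than aorta 1 and 3. Their part in Kcnk3 was not tested.

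In aorta, Kcnk3 turned on aorta 2. Without that library the gene was lower in aorta than the mean of the other 6 (-1.66, adjusted p = 0.012, against -0.58 and 0.387 with it) and higher in kidney (1.38, adjusted p = 0.0377, against 1.20 and 0.19). Without aorta 1 it was lower in bladder (-1.48, adjusted p = 0.0427, against -1.36 and 0.108). With voom on rebuilt reads Kcnk3 was also higher in kidney and intestine and lower in bladder and stomach (adjusted p = 0.00502 to 0.0427). Array weights added the same calls (adjusted p = 0.000818 to 0.0435), and edgeR and DESeq2 did not.

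Kcnk1, the K2P channel TWIK-1 (ENSMUSG00000033998, chromosome 8, 126721909 to 126757424, plus strand), was highest in stomach and almost missing in lung. It was at 587, 660 and 574 in stomach and at 355, 267, 387 and 371 in intestine. Kidney gave 67, 426 and 235, heart 143, 96 and 178, bladder 26, 33 and 255, aorta 66, 97 and 13, and lung 0, 15 and 10, from 36 rebuilt reads in all. Stomach lay above every other library, and the ranges of kidney, heart, bladder and aorta overlapped.

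The stomach mean of Kcnk1 was 72.9 times the lung mean (607 ± 46.4 against 8.33 ± 7.64), a log2 difference of 6.76 ± 0.98 (adjusted p = 6.12e-05), and 9 of 21 pairs passed. The ratio rested on few lung reads and was 48.6 without lung 1 and 121 without lung 2. Against the mean of the other 6, the gene was higher in stomach (3.08 ± 0.75, adjusted p = 0.00584) and intestine (2.12 ± 0.67, adjusted p = 0.0249) and lower in lung (-4.81 ± 0.75, adjusted p = 0.000412). The intestine call was lost without any 1 of the intestine libraries (adjusted p = 0.0544 to 0.0779). Among neighbours in the order only aorta and lung passed (3.01 ± 0.98, adjusted p = 0.0363), a step lost without aorta 1, aorta 2 or lung 1 (adjusted p up to 0.182).

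**Figure D3:**
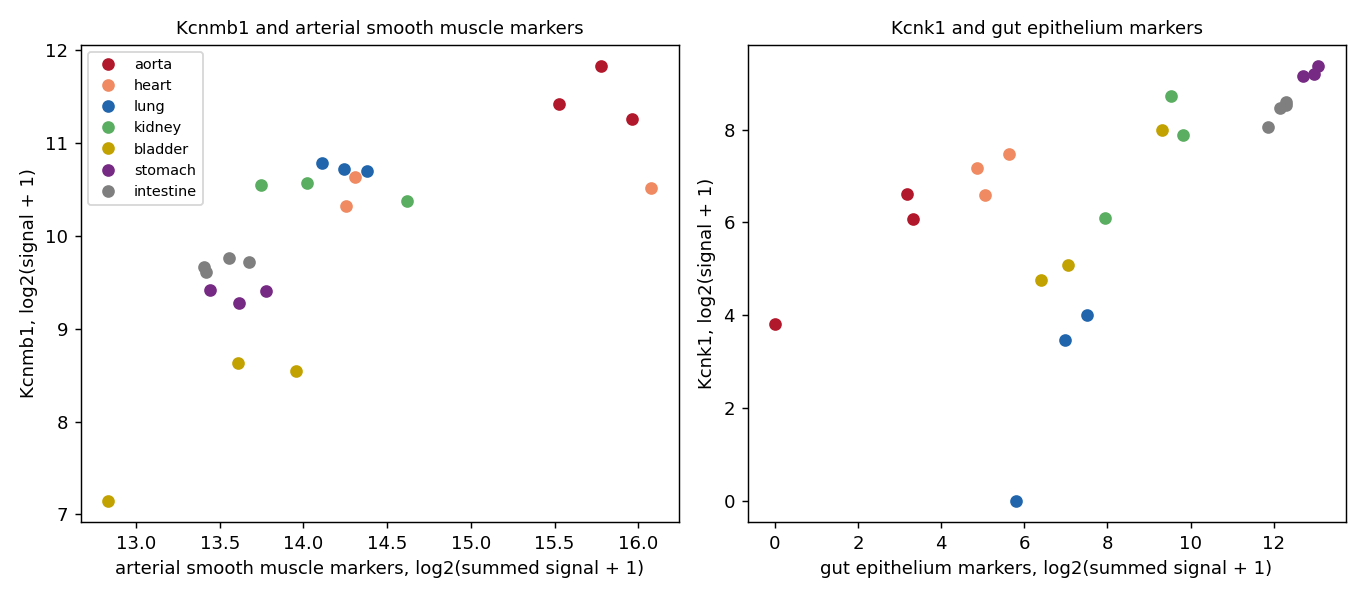
Kcnmb1 against the summed signal of 7 arterial smooth muscle markers (left) and Kcnk1 against that of 7 gut epithelium markers (right), 1 point per library, coloured by tissue, both axes in log2(signal + 1). The stomach and intestine libraries hold the highest gut epithelium sums, from 3727 to 8612, and lie at the top right for Kcnk1.

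Kcnk1 is also a gene of epithelia, and epithelial markers stood beside it in these libraries. Of the 7 gut epithelium markers (Epcam, Krt20, Vil1, Cdh17, Krt8, Gkn1, Muc5ac), 6 passed as higher in stomach and 6 in intestine. Cdh17 was at 0 in all stomach libraries and Muc5ac reached a mean of 3736 there. Their sum was 0 to 9 in aorta, 28 to 49 in heart and 55 to 181 in lung, with Krt20, Vil1, Gkn1 and Muc5ac at 0 in all aorta libraries and Epcam, Krt20, Cdh17 and Muc5ac in heart. In bladder the sum was 84, 131 and 635, in the order of Kcnk1. In heart Kcnk1 was at 96 to 178, beside the sums of 28 to 49. The part of epithelial RNA in the stomach and intestine values was not tested.

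Kcnj2, the Kir2.1 inward rectifier (ENSMUSG00000041695, chromosome 11, 110956990 to 110967647, plus strand), ranged from no reads to a level of 514. It was at 498, 54 and 514 in kidney, at 76, 137 and 202 in heart, at 39, 67 and 32 in stomach and at 28, 17, 16 and 13 in intestine. Bladder gave 23, 5 and 1, lung 0, 0 and 2, and all 3 aorta libraries 0. Kidney 2 lay below the heart libraries and among those of stomach, intestine lay below stomach, and no lung library reached the intestine range. The aorta floor of 3 reads per library averages a signal of 16.8 (28.3, 12.2 and 9.9), so a level like the mean of bladder was not detectable there at this depth.

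Kidney, at a mean Kcnj2 of 355 ± 261, was at least 21.1-fold higher than that aorta floor, and 14 of 21 pairs passed, the one of kidney and aorta with adjusted p = 2.82e-06. Against the mean of the other 6, Kcnj2 was higher in kidney (4.59 ± 0.69, adjusted p = 0.000136) and heart (3.53 ± 0.69, adjusted p = 0.00168) and lower in aorta (adjusted p = 3.83e-05) and lung (adjusted p = 0.00101). The fitted sizes for aorta and lung, -4.65 and -4.03, depend on the pseudocount, and with a pseudocount of 10 they were -2.22 and -2.12. The aorta call was lost with voom on rebuilt reads (adjusted p = 0.0929) and the lung call with edgeR on them (adjusted p = 1). The lung libraries held 6035682 to 8554565 rebuilt reads, at which 3 reads are worth a signal of 2.0 to 2.8. No step between neighbours in the order passed. Without bladder 1 the gene was also lower in bladder (-2.40, adjusted p = 0.04, against -1.47 and 0.172) and higher in stomach (1.90, adjusted p = 0.0366, against 1.75 and 0.0821).

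Markers of pericytes and endothelium ran partly with Kcnj2. In the kidney libraries Kcnj2 (498, 54, 514) followed Cspg4 (2321, 65, 2542) and the pericyte sum (15954, 9373, 23944), whereas endothelium markers were highest in kidney 2 (2974, 6201, 3153). Over tissues, the pericyte sum was 13329 to 42890 in heart and 3306 to 9584 in aorta. In lung it was 4398 to 4798, above the 2120 of bladder 3. Endothelium markers summed to 4975 to 5972 in heart, 678 to 1186 in aorta and 2401 to 3665 in lung, a range that includes stomach libraries (2141 to 2633) in which Kcnj2 was detected. Of 6 nephron markers, 5 passed as higher in kidney, at sums of 4302, 7140 and 14389. The part of any of these cells in the Kcnj2 values was not tested.

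Read by tissue, the members made 23 calls in 63 comparisons of 1 tissue with the mean of the other 6, or 79 of 189 in pairs of tissues. Over all genes 21.5% of tissue comparisons and 20.9% of pairs passed. With each pair fitted alone, 69 member pairs passed against 21.7% of all. Of the 79 pair calls, 58 were kept whichever library was left out.

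**Figure D4:**
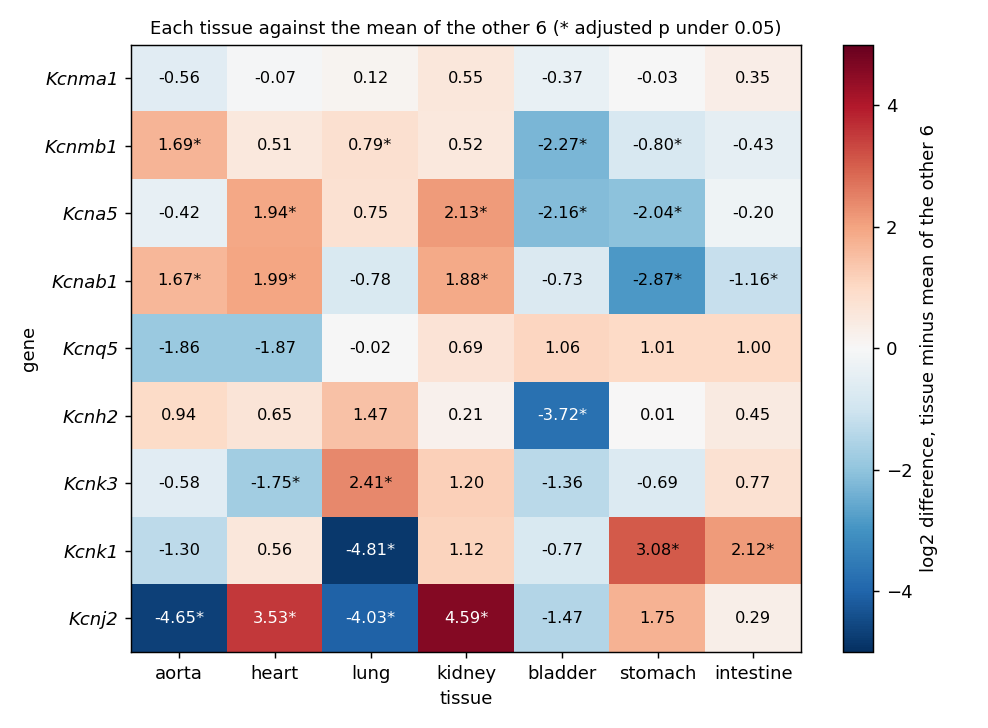
Log2 difference of each tissue from the mean of the other 6 for each channel gene, in the shared limma fit on log2(signal + 1). Red is higher, blue lower, and an asterisk marks an adjusted p under 0.05. Calls fall in every column, with 3 higher in kidney and in heart and 3 lower in bladder and in stomach.

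In aorta, 2 of 9 members were higher (Kcnmb1 and Kcnab1, against 9.15% of all genes) and 1 was lower (Kcnj2, against 42.8%). The median log2 difference was -0.56 for the members and -1.04 for all genes. The median over all genes was -0.57 with a pseudocount of 10. It was -0.40 with edgeR, -0.37 with DESeq2 and -0.39 with voom on rebuilt reads. The shift of all genes in aorta was thus negative in each, but its size depended on the method. Its part in the calls of the members was not tested. Heart had 3 higher (Kcna5, Kcnab1, Kcnj2, against 6.03%) and 1 lower (Kcnk3, against 12.4%), with medians of 0.56 and -0.19. Cardiomyocyte markers summed to 2247 to 2912 in heart, 4 of 6 passing as higher, and their part was not tested.

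Kidney had the same 3 genes higher (Kcna5, Kcnab1, Kcnj2, against 6.35%) and none lower (4.11%, none at an unadjusted p under 0.05, and 0 by edgeR, DESeq2 and voom), with medians of 1.12 for the members and 0.22 for all genes. The calls in heart and kidney come from 1 fit in which each tissue is part of the other's reference. Lung had Kcnmb1 and Kcnk3 higher (4.43%) and Kcnk1 and Kcnj2 lower (3.48%), with medians of 0.12 and 0.15. Over all genes lung had 750 higher and 588 lower calls, and 569 and 696 with median-of-ratios scaling.

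Bladder had none higher (8.31%, none at an unadjusted p under 0.05, and 0 by edgeR, DESeq2 and voom) and Kcnmb1, Kcna5 and Kcnh2 lower (7.40%), with medians of -1.36 for the members and 0.06 for all genes. Stomach had Kcnk1 higher (13.4%) and Kcnmb1, Kcna5 and Kcnab1 lower (6.93%), with medians of -0.03 and 0.30. Intestine had Kcnk1 higher (15.5%) and Kcnab1 lower (9.97%), with medians of 0.35 and 0.34.

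Pair by pair, the members' calls ran against a background that depended most on aorta. Aorta differed from lung, bladder, stomach and intestine in 4 of 9 members each, where 21.4%, 32.7%, 47.3% and 52.3% of all genes passed, and from heart and kidney in 3 (19.3% and 40.1%). Heart differed from bladder and intestine in 5 members (14.0% and 29.1%), from lung in 4 (7.16%), from stomach in 3 (25.7%) and from kidney in 1, Kcnk3 (9.11%). That Kcnk3 call was lost without heart 3 or any 1 of the kidney libraries (adjusted p up to 0.177). It was also lost in a fit of that pair alone (adjusted p = 0.0847). Lung differed from stomach in 6 (19.4%), from bladder in 5 (10.1%) and from kidney and intestine in 3 (10.6% and 21.9%). The 6 that differed between lung and stomach were all members that passed the F test other than Kcnh2. Kidney differed from bladder in 6 (14.0%), all but Kcnk1 of those that passed, from intestine in 4 (12.3%) and from stomach in 3 (12.6%). Between kidney and bladder, Kcnk3 (adjusted p = 0.0499) was lost in 16 of 22 fits that each left out 1 library. Bladder differed from stomach in 5 (16.3%) and from intestine in 3 (17.2%), and stomach from intestine in 1, Kcnab1 (6.12%).

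Across libraries, some members ran together. Pearson's r of log2(signal + 1) was 0.82 between Kcnmb1 and Kcnh2 over 22 libraries and 0.88 over the 19 without aorta. It was 0.63 and 0.82 between Kcna5 and Kcnab1 and 0.60 and 0.86 between Kcnmb1 and Kcna5. Kcnma1 had at most 0.53, with Kcnq5, and Kcnk1 had 0.54 with Kcnj2, 0.13 with Kcnq5 and -0.06 to -0.36 with the other 6. Libraries of a tissue share that tissue, its sort and its depth, so these values describe the 22 libraries and carry no test.

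For each member past the F test, the 3 genes with the highest correlation over the 22 libraries are named. For Kcnmb1 they were Speg, a kinase of striated and smooth muscle (r = 0.95, and 0.96 without aorta), Lmcd1, a LIM protein of muscle (0.95 and 0.96), and Lmod1, the smooth muscle leiomodin (0.94 in both). Lmod1 ran from a mean of 2670 in aorta to 511 in bladder. For Kcna5 they were Tmem200b (0.94 and 0.95), Cabp1 (0.93 and 0.94) and Hey2, a Notch target that marks arterial identity (0.91 and 0.97), at 764 in kidney and 67.7 in stomach. For Kcnab1 they were Rock1, a kinase that raises calcium sensitivity of contraction, Ppp1r12a, the targeting subunit of myosin phosphatase on which that kinase acts, and Foxc1, all at 0.90 in both sets.

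For Kcnh2 the 3 were Adcy5 (0.90 and 0.91), an adenylyl cyclase, Nes (0.89 and 0.93), which encodes nestin, and Dtna (0.89 and 0.88), which encodes alpha-dystrobrevin. For Kcnk3 they were Rims2 (0.88 and 0.87), Hspa1l (0.86 and 0.92) and Tnip1 (0.84 and 0.82), and Rims2 was low itself, at a mean of 52.0 in lung and at most 17.5 elsewhere. For Kcnk1 they were Lgals4 (0.78 and 0.79), an intestinal galectin, Prom1 (0.77 and 0.90) and Mall (0.77 and 0.75). Prom1, the epithelial and stem cell glycoprotein CD133, was at 2564 in stomach and 0 in aorta. For Kcnj2 they were Slc45a4 (0.92 in both), Cobll1 (0.90 and 0.88) and Limd1 (0.89 and 0.87).

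The other potassium channel genes give the setting of these 9. Of 92 further genes in 9 lists by family, 89 were in the table, 62 could be tested and 44 of these differed among the tissues, against 59.6% of all genes. By tissue, 23 of the 62 were higher and 4 lower in intestine, 19 and 2 in stomach, 9 and 9 in bladder and 7 and 4 in kidney. Lung had 2 and 6, heart 5 and 16 and aorta 1 and 33. Over all genes the shares higher and lower were 15.5% and 9.97% in intestine, 13.4% and 6.93% in stomach and 8.31% and 7.40% in bladder. They were 6.35% and 4.11% in kidney, 4.43% and 3.48% in lung, 6.03% and 12.4% in heart and 9.15% and 42.8% in aorta. These lists were described by counts and no test was made of a list.

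Of 7 other BK subunit genes, 4 were tested and 3 passed. Lrrc26 and Lrrc55 encode leucine-rich repeat proteins that act as BK gamma subunits. Lrrc26 was at 220 ± 8.02 in stomach and 67.5 ± 20.1 in intestine, both higher. Gut epithelium markers were highest in the same tissues (6697 to 8612 and 3727 to 5036), and their part was not tested. Lrrc55 was at 398 ± 51.3 in intestine, 293 ± 226 in bladder and 44.3 ± 21.1 in stomach, all higher, and both were at 0 in every aorta and heart library. Kcnmb4, the beta-4 subunit, was at 22.0 ± 7.00 in stomach, higher there. Per exonic kilobase the means over the tissues were 35.9 for Lrrc26 and 16.4 for Lrrc55, against 317 for Kcnmb1.

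Among Kv genes, Kcns3, the silent Kv9.3 subunit, was higher in lung (602 ± 71.7) and intestine (352 ± 31.7) and lower in heart (6.33 ± 5.69). Of the Kv3 and Kv4 list 8 of 10 tested genes passed, and of the Kv1 and Kv beta list 2 of 6. Kcnip3, a calcium sensor that binds Kv4 pores, was higher in heart (322 ± 43.6) and intestine (254 ± 42.7) and lower in aorta, where it was at 0 in all libraries. Kcna1 and Kcna3, pores related to Kcna5, had means of at most 19.3 and 19.0.

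In the KCNQ and KCNE list 5 of 7 tested genes passed. Kcne4, an accessory subunit of KCNQ channels in vascular muscle, was higher in heart (1878 ± 98.7) and bladder (1545 ± 562) and lower in stomach (478 ± 14.2) and intestine (664 ± 41.7). Kcnq1 and Kcne2, which together form the potassium channel of acid-secreting parietal cells, were at 1639 ± 133 and 1258 ± 162 in stomach, higher there, beside the gut epithelium markers. Kcnq1 was higher in intestine too (346 ± 88.3), and both were lower in aorta and bladder. Of the list of EAG, ERG and ELK subunits 1 of 4 tested genes passed, Kcnh1, which was lower in heart, at 0 in all 3 libraries.

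Of the K2P list 6 of 7 tested genes passed. Kcnk2, the stretch-sensitive TREK-1, was higher in bladder (443 ± 245) and intestine (217 ± 21.2) and at 3.00 ± 5.20 in aorta, lower there. Kcnk5, or TASK-2, was higher in kidney (178 ± 158), bladder, stomach and intestine and lower in lung (0.667 ± 1.15), aorta (4.33 ± 4.51) and heart, where it was at 0 in all 3 libraries. Of the inward rectifier list 9 of 10 passed. Kcnj8, the Kir6.1 pore of vascular ATP-sensitive channels, was higher in intestine (1254 ± 83.2) and lower in bladder (372 ± 256). Kcnj12, the Kir2.2 pore closest to Kcnj2, was higher in heart (467 ± 23.1). Kcnj15 was higher in stomach (1333 ± 264), beside gut epithelium markers whose part was not tested, and in heart (279 ± 205). Kcnj15 was lower in aorta and intestine, and in bladder, where it was at 0 in all 3 libraries.

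In the list of SK, IK and Slo2 channels, opened by calcium or sodium, 5 of 7 genes passed. Kcnn3, the SK3 pore, was higher in intestine (538 ± 75.2), stomach (421 ± 81.9) and bladder (380 ± 224) and lower in aorta (13.0 ± 11.5), heart (1.67 ± 2.08) and lung (10.7 ± 9.29). Kcnn4, the IK channel, was higher in stomach (541 ± 101) and intestine (426 ± 145) and lower in aorta (2.33 ± 4.04). Visceral smooth muscle markers summed to 4121 to 5357 in intestine, 2285 to 2818 in stomach and 1536 to 3497 in bladder, but also to 3024 to 5360 in aorta and 3929 to 4188 in lung. Gut epithelium markers summed to 6697 to 8612 in stomach and 3727 to 5036 in intestine, to 84 to 635 in bladder and 0 to 9 in aorta. The part of visceral muscle or epithelium in these levels was not tested.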

How the data were processed

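Arterial smooth muscle cells of 7 tissues gave 22 libraries. Per the labels' protocols, the input was no more than 10 ng of total RNA and the kit was SMART-Seq v4, which copies whole transcripts. The submitters' processing notes name, without roles, STAR 2.7.10a, Trimmomatic 0.39, featureCounts 2.0.4, Picard 3.0.0, DESeq and DESeq2 1.36.0, and the build mm39. The values deposited by the authors, for 28099 genes in 1 table, are a signal, judged from the values to be read counts that were scaled per library and rounded. A strand setting is not given in the sources used here.

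The signal of 1 read, 0.4216 to 9.4205, was found in each library by a likelihood search over signals of 15 to 1500, and division by it gave rebuilt reads, least certain in bladder 2. Reads carry no molecular identifiers, so floors cover counting error only. Limma-trend (limma 3.58.1, R 4.3.3) was fitted to log2(signal + 1) over the 16917 genes that reached a signal of 10 in 3 or more libraries, all 9 members among them. Fold changes on that scale understate changes of low genes. The fit held 7 tissue groups and no covariates, and a call needs a Benjamini-Hochberg adjusted p under 0.05. Values after ± are SD for signal and SE for log2 differences. The scripts were tested on simulated data. Alternatives used other scalings and pseudocounts, array weights, no filter, a replicate block, left-out libraries, and edgeR 4.0.16, DESeq2 1.42.0 and voom on rebuilt reads. Exonic lengths, the union of a gene's annotated exons, came from GENCODE M21, matched for 96.2% of genes.

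The members and lists were chosen with earlier results of these data known. All 9 members were named. From each other channel list the text names up to 3 genes past the F test with the highest mean, except that 1 such gene is not reported here. For each member past the F test it names the 3 genes with the highest correlation, skipping predicted genes, olfactory receptors and other members.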

Additional observations from a re-analysis of the deposited data

Results flagged for a closer look

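Kcnk3 in intestine 4 stood above the other intestine libraries, at a signal of 1323 against 942 to 1006. Its gap to the nearest library was 0.832 of the range of the 4, just past the limit of 0.829 for 4 values. Chance gives such a gap in about 1 in 20 groups. The 9 intestine groups, with 4 libraries each, were the ones examined in this way.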

How the results depend on the processing

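Under 34 alternatives (35 for pairs), the 7 of 9 members that passed the F test became 7 or 8, the 23 tissue calls became 21 to 31 and the 79 pair calls became 62 to 91. Settings without the aorta libraries hold fewer tissue and pair comparisons, so their counts are not on the same base. Leaving out 1 library gave 7 to 8, 21 to 28 and 71 to 85. None of the 23 tissue calls turned direction. Of them, 13 kept their side of the threshold under every alternative run for them, 10 lost it under at least 1, and 19 further member and tissue comparisons passed under at least 1; the cause was not tested. Over its alternatives, adjusted p ran from 0.000178 to 0.111 for Kcnmb1 in lung, 1.28e-06 to 0.0662 for Kcnmb1 in stomach, 0.000116 to 0.0629 for Kcna5 in bladder and 1.92e-06 to 0.118 for Kcnab1 in aorta. It ran from 0.0024 to 0.32 for Kcnk3 in heart, 4.24e-07 to 0.0732 for Kcnk3 in lung, 9.92e-06 to 0.0929 for Kcnj2 in aorta and 1.67e-05 to 1 for Kcnj2 in lung.

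Counts over all genes moved more. Lower calls in aorta were 7235 but 2598 with edgeR and 1823 with array weights, those in heart 2093 but 603 with edgeR, and higher calls in stomach 2275 but 6054 with array weights. Median-of-ratios scaling moved the median log2 difference of all genes by -0.13 in lung, and TMM by 0.11 in aorta. Depth limits Kcnq5 and Kcnj2 most, in aorta and heart 3.

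Replicate numbers did not pair the libraries: of 63 same-numbered pairs, 3 had a correlation of deviations over 0.1, with a median of -0.01. With the replicate number as a block, 7 members, 21 tissue calls and 74 pair calls passed. Kcnab1 in intestine was then at -0.98 (adjusted p = 0.0613, the highest of its alternatives, from 0.000104) and Kcnk1 in intestine at 2.08 (adjusted p = 0.0682, within 0.000133 to 0.0779).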
